A study of Mus musculus with 11 samples.

Results

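Classical and non-classical MHC class I heavy chains, the shared light chain and the peptide transporter were followed in mouse haematopoietic stem cells. The 10 genes were H2-K1 and H2-D1 (classical heavy chains), H2-T23, H2-Q4, H2-Q6, H2-Q7 and H2-M3 (non-classical heavy chains), B2m (light chain) and Tap1 and Tap2 (transporter). They were taken from the count table by matching its Ensembl gene IDs to these symbols, and all 10 were found among 49585 entries and were among the 13448 genes with enough counts to be tested. The set was selected on results of these same libraries, with the genes' levels over the 4 groups and their fold changes already known, and it sets classical against non-classical genes. The levels, fold changes and adjusted p-values below therefore describe where each gene stood, and how many of the 10 passed is given beside the share of all tested genes that passed.

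Stem cells of C57BL/6 mice were sorted from bone marrow as Lin- c-Kit+ Sca-1+ CD48- CD150+ cells and split by CD41, the product of Itga2b, into CD41- and CD41+ fractions. Control mice had received rabbit serum, and the other mice were taken 24 h after platelet depletion. Each library was made from RNA of 1000 cells, with cells of 3 mice pooled per library and libraries described as biological replicates. There were 3 control CD41-, 2 control CD41+, 3 depleted CD41- and 3 depleted CD41+ libraries, 11 in all. The labels do not say whether a CD41- and a CD41+ library came from the same mice.

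MHC class I molecules display peptides from inside the cell to T cells and are carried by nearly all nucleated cells. A heavy chain pairs with beta-2-microglobulin, the product of B2m, and is filled in the endoplasmic reticulum with peptides that the Tap1 and Tap2 heterodimer pumps in from the cytosol. Classical heavy chains are broadly and strongly expressed, while non-classical ones are usually less abundant and show narrower sets of ligands, some of them to innate-like T cells or NK cell receptors. Transcription of these genes is driven in large part through short promoter elements bound by NF-kB, interferon regulatory factors, and the RFX, CREB and NF-Y proteins that Nlrc5 works with.

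Of the 10 genes, 9 lie on chromosome 17 (GRCm38 coordinates, GENCODE M21), in the H2 complex. In order along the chromosome they were H2-K1 (33996017 to 34000347, minus strand), Tap1 (34187553 to 34197225, plus), Tap2 (34203527 to 34216321, plus), H2-D1 (35262730 to 35267499, plus), H2-Q4 (35379617 to 35385290, plus), H2-Q6 (35424850 to 35430055, plus), H2-Q7 (35439155 to 35443773, plus), H2-T23 (36029773 to 36032855, minus) and H2-M3 (37270220 to 37274484, plus). B2m lies on chromosome 2 (122147686 to 122153083, plus). Reads in this family can fall on near copies. Of the 50-base words in the annotated transcripts, 35.0% in H2-Q6, 36.4% in H2-Q4, 26.5% in H2-Q7, 14.5% in H2-T23, 12.8% in H2-D1 and 9.63% in H2-K1 also occurred in another gene, against 0.576% in H2-M3 and 0 in B2m. H2-Q7 held 13.9% of the 50-base words of H2-Q6. Counts of H2-Q4, H2-Q6 and H2-Q7 are therefore uncertain as to which copy they came from. The antisense gene Gm11131 overlaps 496 exonic bases of H2-Q4, Psmb9 on the other strand overlaps 212 of Tap1, and Gm15821 and Gm20496 overlap 533 and 165 of Tap2, and without a stated strand setting such reads cannot be told apart.

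Promoters of the class I genes are shown to place the kinds of short element named above. A link between these elements and the fold changes was not tested. Windows from 250 bases before to 50 bases after the RefSeq start (GRCm38.p6) were found for 9 of the 10 genes, with none for Tap2. Each sequence is 150 bases, 5′ to 3′ on the gene's strand, with exact matches to the NF-kB element GGGATTCCC, the class I interferon element TTTCACTTC or the tandem interferon element, a pair of GAAA strings with 2 bases between them, on either strand, in capitals. The stretches cover H2-K1 (chr17:34000325-34000474, minus strand), H2-Q6 (chr17:35424660-35424809, plus strand), H2-Q7 (chr17:35439004-35439153, plus strand), H2-M3 (chr17:37270078-37270227, plus strand), H2-T23 (chr17:36032739-36032888, minus strand) and B2m (chr2:122147499-122147648, plus strand).
H2-K1: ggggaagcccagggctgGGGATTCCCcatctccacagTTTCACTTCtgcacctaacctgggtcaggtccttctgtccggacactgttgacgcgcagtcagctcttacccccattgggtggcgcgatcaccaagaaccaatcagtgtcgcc
H2-Q6: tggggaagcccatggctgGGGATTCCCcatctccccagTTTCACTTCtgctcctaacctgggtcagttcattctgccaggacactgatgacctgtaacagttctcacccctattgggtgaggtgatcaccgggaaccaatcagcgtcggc
H2-Q7: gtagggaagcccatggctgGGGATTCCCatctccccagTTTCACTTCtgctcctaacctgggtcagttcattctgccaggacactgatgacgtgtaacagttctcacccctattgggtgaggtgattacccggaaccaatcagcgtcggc
H2-M3: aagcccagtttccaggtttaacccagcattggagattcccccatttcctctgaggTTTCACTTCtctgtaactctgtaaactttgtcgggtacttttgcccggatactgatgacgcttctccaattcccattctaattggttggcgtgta
H2-T23: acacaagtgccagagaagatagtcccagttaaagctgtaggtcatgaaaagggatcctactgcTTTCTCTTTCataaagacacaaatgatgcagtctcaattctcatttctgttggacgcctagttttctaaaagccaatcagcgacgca
B2m: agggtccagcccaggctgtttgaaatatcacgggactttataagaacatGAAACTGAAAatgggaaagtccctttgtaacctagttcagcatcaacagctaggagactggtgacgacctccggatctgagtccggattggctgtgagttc

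The stretches of H2-Q6 and H2-Q7 were 96.0% identical when aligned, and those of H2-K1 and H2-Q6 84.1%. H2-K1 against H2-M3 gave 53.4%, and H2-K1 against H2-T23 gave 51.6%. The NF-kB element was present in the windows of H2-K1, H2-D1, H2-Q6 and H2-Q7, and in 0.353% of 32851 mouse promoter windows of the same length. The class I interferon element was present in H2-K1, H2-D1, H2-Q4, H2-Q6, H2-Q7 and H2-M3, against 0.505% of all windows. H2-T23 and B2m held neither, and held the tandem interferon element instead (3.44% of all windows). The CRE core TGACG, a letter string of CREB sites, was present in 7 of the 9 and not in H2-T23 or H2-Q6, and the CCAAT box, the letter string of NF-Y sites, was in all 9 windows searched. These short strings are common, at 20.8% and 37.4% of all windows. All 5 strings were searched on both strands, no counted match of the first 3 overlapped another of them in these windows, and a match is a string of letters and not a measured binding site.

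**Figure D1:**
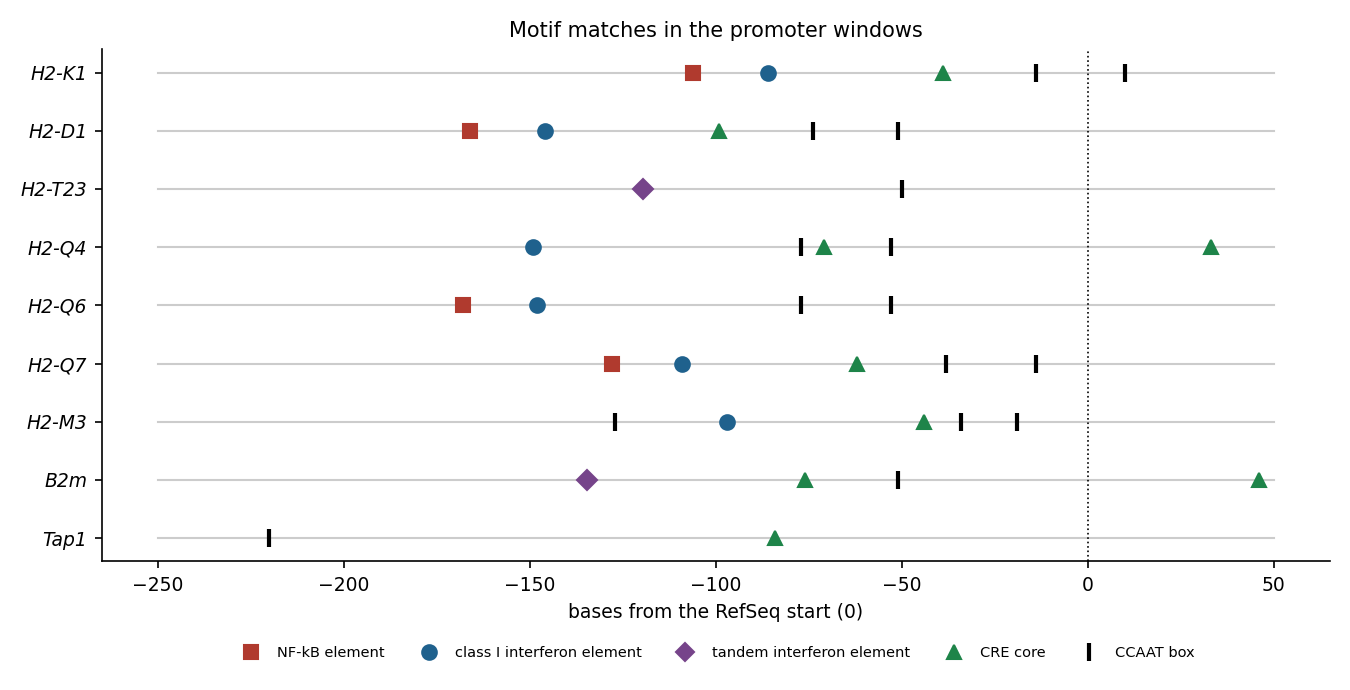
Positions of exact matches to 5 motifs in the promoter windows of 9 genes, with bases from the RefSeq start on the x axis and 1 line per gene. H2-K1, H2-D1, H2-Q6 and H2-Q7 carry both the NF-kB and the class I interferon element, while H2-T23 and B2m carry the tandem interferon element alone of these 3.

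Library totals ran from 974196 to 9950423 counts, with a median of 3878931, the smallest being depleted CD41+ replicate 1, and the 10 genes took 1.19 to 1.97% of the counts of a library. Itga2b averaged 69.0 CPM (the count of a gene scaled to library size, with TMM factors) in control CD41-, 389 in control CD41+, 42.2 in depleted CD41- and 212 in depleted CD41+ libraries. The 6 stem cell genes read for the sort gate (Kit, Ly6a, Slamf1, Procr, Hlf, Mecom) were counted in each group. Their summed level was 1410 to 1660 CPM in control CD41-, 668 to 973 in control CD41+, 802 to 1120 in depleted CD41- and 279 to 796 in depleted CD41+ libraries. Transcripts of neutrophil genes were present throughout, at a summed 3790 to 76200 CPM over the 11 libraries. In bulk libraries of this kind, fewer cells of a type and less RNA per cell cannot be told apart.

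Per kilobase of exon, B2m was the most abundant of the 10, at 9741 CPM per kilobase averaged over the 4 groups (libraries 6582 to 13310). The classical heavy chains followed, with H2-D1 at 1250 (959.2 to 1485) and H2-K1 at 832.2 (610.8 to 1093). H2-T23 led the non-classical heavy chains at 159.7 (88.94 to 242.3), ahead of H2-Q6 at 105.4 (56.01 to 169.6), H2-Q7 at 46.69 (29.3 to 63.59) and H2-M3 at 33.11 (13.15 to 50.42). The transporter genes lay among these last ones, with Tap1 at 50.93 (39.01 to 63.86) and Tap2 at 41.66 (33.83 to 50.88). H2-Q4 was close to the limit of counting, at 1.804 CPM per kilobase and 2 to 50 counts per library. The library ranges of H2-D1 and H2-K1 overlapped, and so did those of each neighbouring pair from H2-T23 down to H2-M3. B2m, the classical pair and H2-Q4 stood clear of the genes next to them on this scale.

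**Figure D2:**
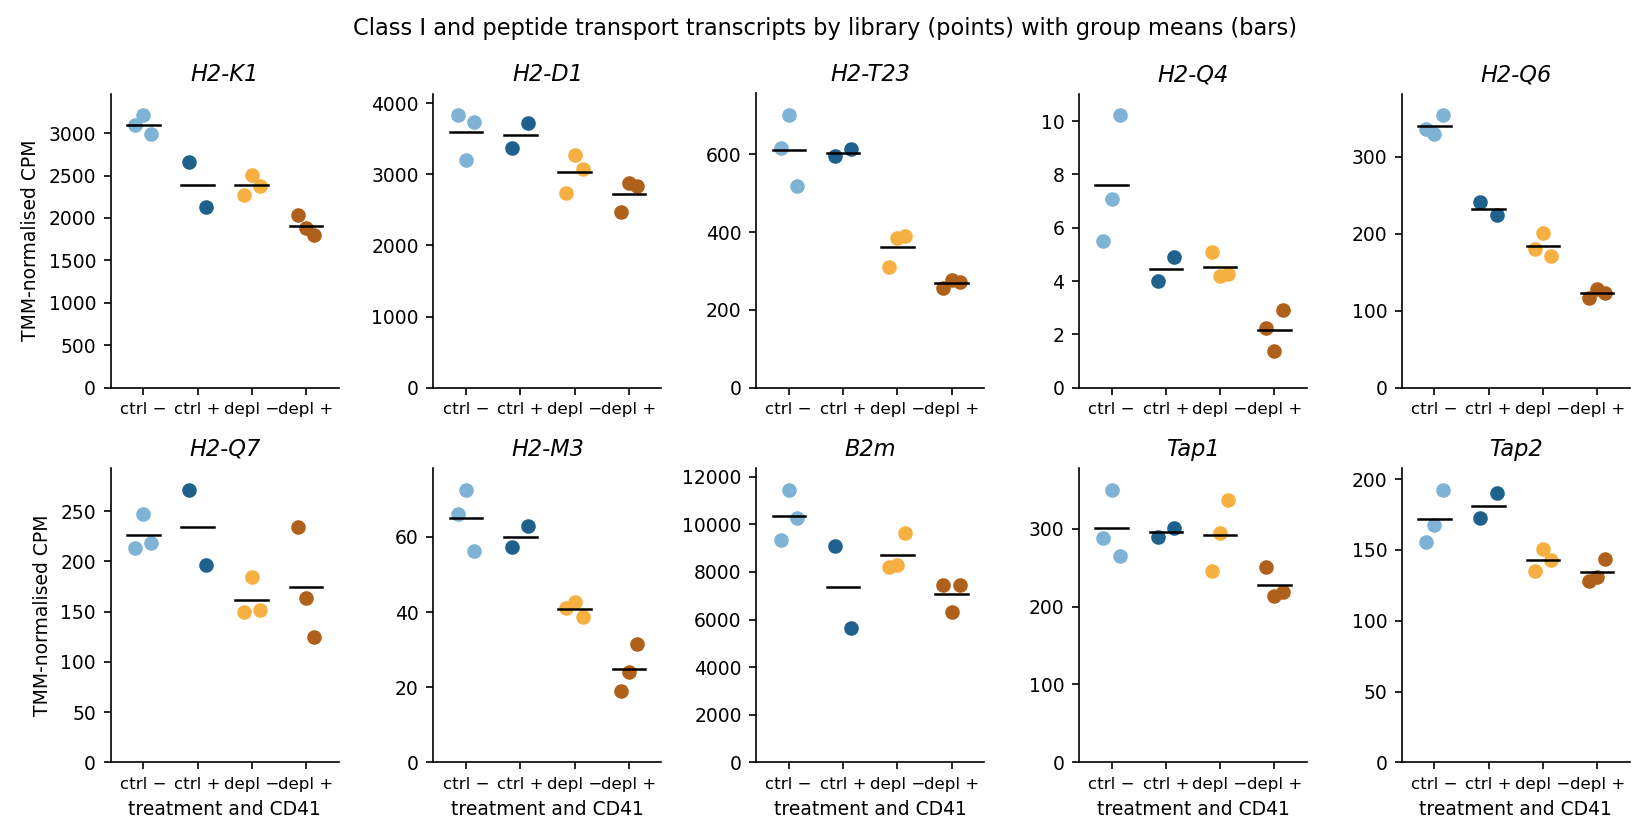
TMM-normalised CPM of the 10 genes (y axis, linear from 0) in each of the 11 libraries (points) with group means (bars), by treatment (ctrl, control; depl, depleted) and CD41 fraction. The control and depleted points of H2-T23, H2-Q6, H2-M3 and Tap2 do not overlap, while those of B2m, Tap1, H2-D1, H2-K1, H2-Q7 and H2-Q4 do.

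Depletion was compared with control serum to see how class I transcripts stood 24 h after platelets were removed. H2-T23, H2-Q6 and H2-M3, all non-classical heavy chains, fell to about the same extent, by 0.90 to 0.96 on the log2 scale. The classical genes H2-K1 and H2-D1 had values of -0.35 and -0.31 and did not pass the test. In the average of both CD41 fractions 3 of the 10 passed at an adjusted p under 0.05 and all 3 were lower, while 2.73% of all 13448 genes were called lower (edgeR quasi-likelihood test, Benjamini-Hochberg adjustment over all genes). The fitted value was below 0 for 10 of 10 genes, with a median of -0.41 against -0.01 over all genes tested. In addition, 4 of the 10 had every depleted library below every control library (H2-T23, H2-Q6, H2-M3 and Tap2), against 1.92% of all tested genes.

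H2-T23 encodes the heavy chain of Qa-1, which presents a leader peptide of other class I molecules to NKG2A receptors of NK cells. Its levels were 614.9, 699.9 and 517.6 CPM in the control CD41- libraries and 594.8 and 612.8 in the control CD41+ libraries. They were 311.2, 383.7 and 390.7 CPM in depleted CD41- and 256.9, 276.9 and 271.8 in depleted CD41+ libraries. Every depleted library lay below every control library, and within depleted mice the CD41+ libraries lay below the CD41- ones. The average log2 fold change was -0.96 ± 0.11 (SE), 1.95-fold lower, with an adjusted p of 0.000662. In CD41- cells it was -0.76 ± 0.15 (adjusted p = 0.0141) and in CD41+ cells -1.17 ± 0.17 (adjusted p = 0.0228). The difference between these responses was -0.41 ± 0.23 (adjusted p = 0.875), so a larger fall in CD41+ cells was not shown.

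H2-Q6 lies in the Qa-2 region of the H2 complex. It was counted at 336.1, 329.3 and 353.6 CPM in control CD41- and at 241.5 and 223.7 in control CD41+ libraries. After depletion it was at 180.3, 201.3 and 170.5 CPM in CD41- and at 116.8, 128.8 and 122.9 in CD41+ libraries. The 4 groups did not overlap at any step, running from control CD41- down to depleted CD41+. The average log2 fold change with depletion was -0.90 ± 0.10, 1.87-fold lower (adjusted p = 0.000606). It was -0.88 ± 0.14 in CD41- cells (adjusted p = 0.00269) and -0.92 ± 0.15 in CD41+ cells (adjusted p = 0.0311).

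H2-M3 presents peptides that begin with N-formylmethionine, as those of bacteria and mitochondria do, and shared the least transcript sequence with other genes among the 7 heavy chains. Control CD41- libraries had 66, 72.51 and 56.18 CPM, and control CD41+ libraries 57.18 and 62.96. Depleted CD41- libraries had 40.95, 42.72 and 38.55 CPM, and depleted CD41+ libraries 18.91, 23.91 and 31.46. The depleted libraries lay below the control ones in both fractions, and the depleted CD41+ ones were lowest. The average log2 fold change was -0.96 ± 0.16, 1.94-fold lower (adjusted p = 0.00448). Neither fraction passed alone, with -0.67 ± 0.22 in CD41- cells (adjusted p = 0.119) and -1.24 ± 0.25 in CD41+ cells (adjusted p = 0.0835) by edgeR. DESeq2 called it in both, with adjusted p-values of 0.0303 and 0.00125, and with no filter on low counts edgeR called it in CD41+ cells (adjusted p = 0.0117). The value was -0.84 (adjusted p = 0.0629) when control CD41+ replicate 2, depleted CD41- replicate 3 and depleted CD41+ replicate 1 were left out together, a choice made after seeing the data.

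The classical heavy chains moved less. H2-K1 was at 3092, 3210 and 2989 CPM in control CD41-, 2657 and 2125 in control CD41+, 2276, 2510 and 2377 in depleted CD41-, and 2037, 1881 and 1795 in depleted CD41+ libraries. Its depleted libraries lay below the control ones within each fraction, and the value was -0.35 ± 0.10 (adjusted p = 0.0535). H2-D1 was at 3830, 3208 and 3729 CPM in control CD41-, 3369 and 3728 in control CD41+, 2732, 3274 and 3078 in depleted CD41-, and 2474, 2882 and 2834 in depleted CD41+ libraries. Its CD41- libraries overlapped between treatments and its CD41+ libraries did not, with a value of -0.31 ± 0.10 (adjusted p = 0.0942). By DESeq2 both passed, at adjusted p-values of 0.00587 for H2-K1 and 0.0177 for H2-D1. H2-K1 also passed by edgeR without control CD41+ replicate 2 (-0.43, adjusted p = 0.0438) and without depleted CD41+ replicate 1 (-0.37, adjusted p = 0.0394).

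The other non-classical heavy chains, the light chain and the transporter did not pass. H2-Q7, the near copy of H2-Q6 and a source of Qa-2, had -0.46 ± 0.16 (adjusted p = 0.0985), with 196.6 to 271.2 CPM in control and 125 to 234.7 in depleted libraries. The highest of those depleted values came from depleted CD41+ replicate 1, the smallest library, and without it H2-Q7 passed at -0.59 (adjusted p = 0.0182). H2-Q4 had -0.90 ± 0.38 (adjusted p = 0.191) on few counts. B2m, which every heavy chain needs to reach the cell surface stably, had -0.16 ± 0.13 (adjusted p = 0.531), with 5661 to 11450 CPM in control and 6331 to 9632 in depleted libraries, and its sign turned (0.05) without control CD41+ replicate 1. Tap1 had -0.21 ± 0.12 (adjusted p = 0.339). Tap2 was at 155.9 to 192.4 CPM in the control and 127.9 to 151 in the depleted libraries, with a value of -0.35 ± 0.11 (adjusted p = 0.0745), and it passed by DESeq2 (adjusted p = 0.0269).

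Within single fractions fewer genes could be called. In CD41- cells 2 of the 10 passed, H2-T23 and H2-Q6, against 0.892% of all genes called lower. The call of H2-T23 there ended without control CD41- replicate 2 (adjusted p = 0.0509) and also without replicate 1 of depleted CD41- cells (adjusted p = 0.103). In CD41+ cells the same 2 passed, against 0.0669% of all genes called lower. With 2 control libraries these CD41+ calls rested on few samples, and both ended without either control CD41+ library, without depleted CD41- replicate 3 or without depleted CD41+ replicate 2 or 3, with adjusted p-values of 0.0504 to 0.241. In a fit on the CD41+ libraries alone the adjusted p was 0.198 for H2-T23 and 0.312 for H2-Q6. The H2-Q6 call in CD41+ cells also ended without replicate 1 of control CD41- (adjusted p = 0.0636) or of depleted CD41- cells (adjusted p = 0.0879). For the difference of the responses between fractions 0 of 13448 genes passed by edgeR, 0% of those tested, 0 of the 10 had an unadjusted p under 0.05, and DESeq2 also called 0 of the 10.

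**Figure D3:**
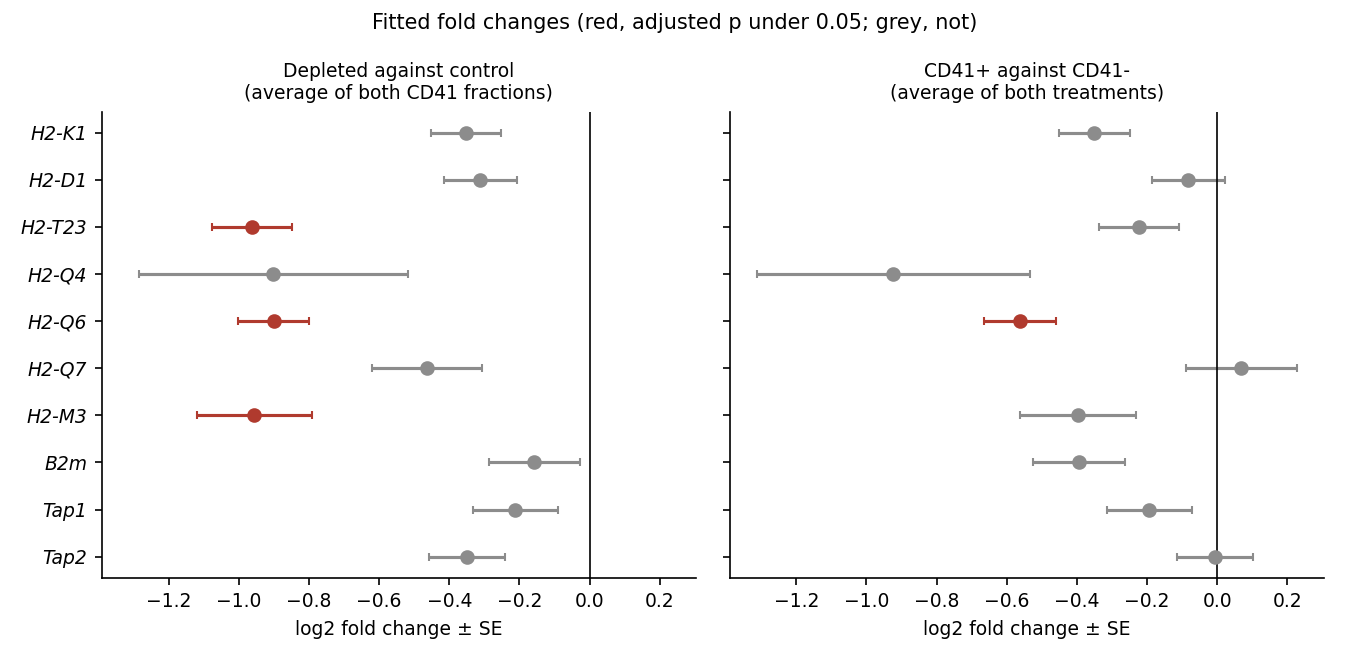
Fitted log2 fold changes (x axis, points) with their SE (bars) for the 10 genes, for depleted against control libraries and for CD41+ against CD41- libraries. H2-T23, H2-Q6 and H2-M3 pass at the left between -0.90 and -0.96, and H2-Q6 passes at the right at -0.56.

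Genes of the sort gate and of other cell types were read beside these values. Of the 6 gate genes 5 had fitted values below 0 after depletion, among them Hlf (-0.70 ± 0.16), a transcription factor of stem cells. The 6 T and NK cell genes summed to 93.9 to 111 CPM in control CD41-, 176 to 227 in control CD41+, 64.3 to 91.8 in depleted CD41- and 114 to 127 in depleted CD41+ libraries. Nkg7, a granule gene of cytotoxic lymphocytes, was 1 of 2 of these genes with enough counts to be tested and had -0.58 ± 0.14. Cd3e, a defining T cell gene, was at 0 in control CD41+ and depleted CD41- libraries, and Cd3g at 0 in depleted CD41+ libraries. Cd3d was at 1.03 to 1.07 CPM in control CD41+ and 1.11 to 1.75 in depleted CD41+ libraries, and Cd3g at 0.802 to 1.81 in control CD41+ libraries. In control CD41- libraries Cd3e, Cd3d and Cd3g reached 0.262, 0.262 and 1.83 CPM. Cd3d and Cd3g reached 0.306 and 1.18 CPM in depleted CD41- libraries, and Cd3e 1.11 in depleted CD41+ libraries. Cd8a reached 2.09 CPM in control CD41-, 0.258 in control CD41+, 0.713 in depleted CD41- and 3.34 in depleted CD41+ libraries. The 4 B cell genes summed to 73 to 88, 82.3 to 111, 36.4 to 83.9 and 46.3 to 80.4 CPM in the same order of groups, with 0 of 4 called, and the 6 macrophage and dendritic genes to 54 to 101, 109 to 181, 53.4 to 152 and 99.2 to 161. The part of these transcripts in the falls of H2-T23, H2-Q6 and H2-M3 was not tested.

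The unequal fall changed the make-up of the heavy chain transcripts. The 5 non-classical genes made up 15.69, 17.96 and 15.24% of heavy chain CPM per kilobase in control CD41- and 16.18 and 15.94% in control CD41+ libraries. After depletion they made up 12.4, 12.52 and 12.3% in CD41- and 11.47, 10.81 and 10.72% in CD41+ libraries. All 6 depleted libraries lay below all 5 control libraries, and the fractions overlapped in control but not in depleted mice. On counts not divided by length the fractions overlapped in depleted mice too, with depleted CD41+ replicate 1 at 12.25% and the depleted CD41- libraries at 12.06 to 12.37%. The group means were 16.3% ± 1.46 (SD, n = 3), 16.1% ± 0.17 (n = 2), 12.4% ± 0.11 (n = 3) and 11% ± 0.41 (n = 3). This share was formed from genes already known to differ, so it is given as a description with no test.

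Both parts of the share were lower after depletion. The classical sum was 2450 ± 102 and 2190 ± 29.7 CPM per kilobase in control CD41- and CD41+ libraries, and 1990 ± 146 and 1710 ± 53.1 in the depleted ones. The non-classical sum was 476 ± 34.3 and 419 ± 10.9 in control, and 282 ± 22.2 and 211 ± 4.7 in depleted libraries. H2-T23 stood at 15.4% ± 3.68 of H2-D1 in control CD41- and 15.2% ± 0.778 in control CD41+ libraries, and at 10.7% ± 0.569 and 8.8% ± 0.404 after depletion (per kilobase). With H2-Q6 and H2-Q7 left out because of their shared sequence, the non-classical share was 9.61% and 10.3% in control and 7.24% and 6.1% in depleted CD41- and CD41+ libraries. The order of treatments was thus the same without this gene pair.

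**Figure D4:**
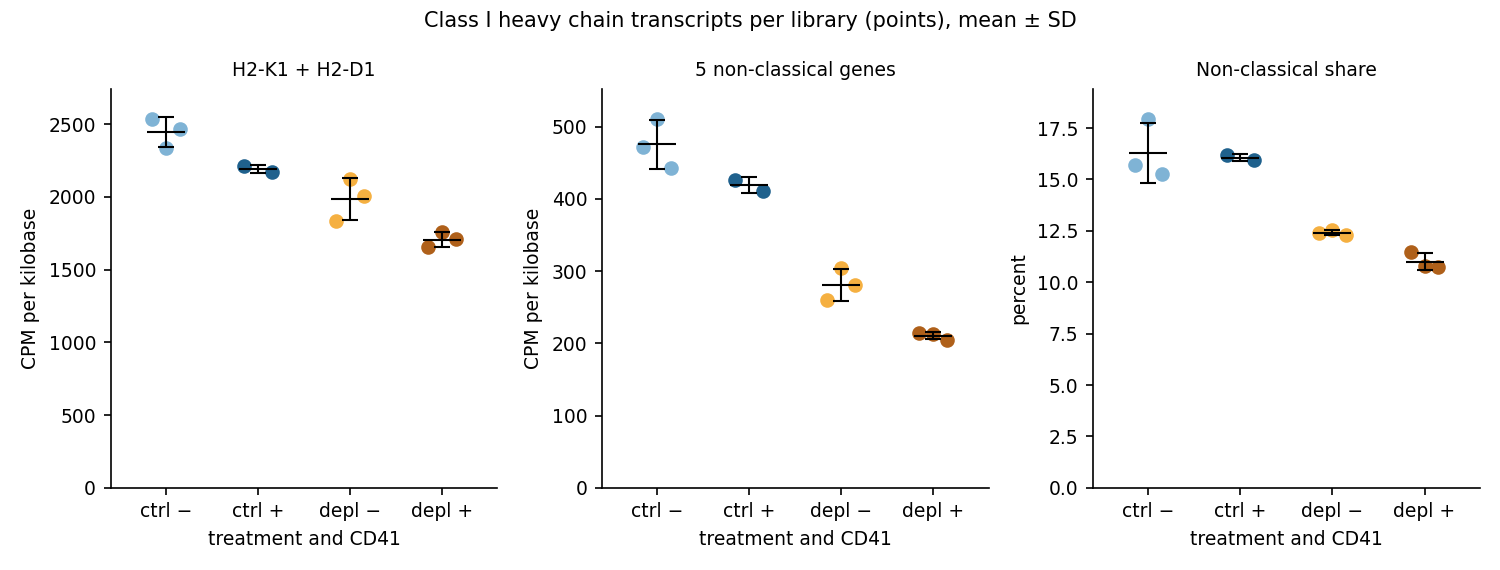
Summed CPM per kilobase of H2-K1 and H2-D1 (left), of the 5 non-classical genes (middle) and the non-classical share in percent (right), per library (points) with mean ± SD, by treatment and CD41 fraction. The share lies between 15.24 and 17.96% in control and between 10.72 and 12.52% in depleted libraries.

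CD41+ and CD41- stem cells were compared because CD41 marks stem cells with a bias to the platelet lineage. H2-Q6 was lower in CD41+ cells, by 0.56 ± 0.10 on the log2 scale in the average of both treatments, 1.48-fold (adjusted p = 0.00794). It was the only one of the 10 that passed, while 2.65% of all genes were called lower. Its values in single treatments were -0.55 ± 0.15 in control mice (adjusted p = 0.0734) and -0.58 ± 0.14 after depletion (adjusted p = 0.133). Within each treatment, the CD41+ libraries lay below the CD41- libraries. The average missed the threshold (-0.54, adjusted p = 0.0681) without the 3 libraries named above.

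H2-Q7 gave 0.07 ± 0.16 in the same comparison (adjusted p = 0.841), and the sign turned to -0.02 when libraries were scaled by their totals alone. The H2-Q6 level per kilobase was 3.08 ± 0.318 times that of H2-Q7 in control CD41- libraries, 2.08 ± 0.361 times in control CD41+, 2.33 ± 0.123 times in depleted CD41- and 1.55 ± 0.498 times in depleted CD41+ libraries. This ratio rests on reads that the near copies may share. H2-K1 had -0.35 ± 0.10 (adjusted p = 0.0612) and passed by DESeq2 (adjusted p = 0.0132) and with library totals alone (adjusted p = 0.0273). B2m had -0.39 ± 0.13 (adjusted p = 0.0945), with 8193 to 11450 CPM in CD41- and 5661 to 9106 in CD41+ libraries. It passed without control CD41+ replicate 1 (-0.57, adjusted p = 0.0317) and with no filter on low counts (adjusted p = 0.0172).

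H2-D1 and Tap2 lay near 0, at -0.08 ± 0.10 (adjusted p = 0.682) and -0.01 ± 0.11 (adjusted p = 0.979), and the sign of Tap2 turned with RLE factors (0.02). H2-T23 had -0.22 ± 0.11 (adjusted p = 0.259), H2-M3 -0.40 ± 0.17 (adjusted p = 0.172), H2-Q4 -0.92 ± 0.39 (adjusted p = 0.175) and Tap1 -0.19 ± 0.12 (adjusted p = 0.356). The median of the 10 was -0.29 against -0.03 over all genes tested. In control mice alone 0 of the 10 passed by edgeR, while 2.62% of all genes did, 3 of the 10 had an unadjusted p under 0.05, and DESeq2 called H2-Q6. In depleted mice alone 0 of the 10 passed against 0.193% of all genes, and DESeq2 again called H2-Q6. There 5 of the 10 had an unadjusted p under 0.05. Both shares of all genes are for the adjusted p, and none is given for the unadjusted p.

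Summed levels of other cells' genes were set beside this. The 6 neutrophil genes summed to 7630 to 12700 CPM in control CD41-, 23200 to 76200 in control CD41+, 3790 to 33900 in depleted CD41- and 12800 to 50300 in depleted CD41+ libraries. Of these 6 genes 0 passed by edgeR, 3 had an unadjusted p under 0.05 and DESeq2 called 2 higher in CD41+ cells, and the depleted ranges overlapped. The 5 erythroid genes summed to 154 to 803, 1240 to 1440, 128 to 1160 and 334 to 1100 CPM in the same order. Of these 5 genes 0 passed by edgeR, and DESeq2 called 1 higher in CD41+ cells and gave no adjusted p for 1. The 8 endothelial and stromal genes summed to 75.6 to 83.9, 161 to 302, 57 to 355 and 272 to 483 CPM in the same order, with Ibsp, a bone matrix gene, at 0 in control CD41- libraries. Of the 7 of them that were tested, 3 were called higher in CD41+ cells and 1 lower, the endothelial gene Emcn (-0.63 ± 0.16, adjusted p = 0.0396). Of all 13448 genes 367 were called higher and 357 lower. Nkg7 had a log2 value of 0.80 ± 0.14 for CD41+ against CD41- cells. Of the gate genes Ly6a had -1.47 ± 0.26, Procr -1.42 ± 0.17, Hlf -1.42 ± 0.17 and Slamf1 0.75 ± 0.19. In single treatments Slamf1 had 1.31 ± 0.28 in control mice and 0.18 ± 0.26 in depleted mice. The part of all these transcripts in the lower H2-Q6 level was not tested.

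Genes that act with class I molecules were read from 4 lists. The first held 11 genes of peptide supply and assembly, namely immunoproteasome subunits, proteasome activators, the trimming enzyme Erap1 and the loading chaperones. After depletion 0 of 11 passed by edgeR, 5 had an unadjusted p under 0.05, and the median was -0.12. Values lay above 0 for 4 genes and below 0 for 7, and DESeq2 called 1 higher and 1 lower. Tapbp, which bridges the transporter and the heavy chain, had -0.36 ± 0.10 (adjusted p = 0.0587). The immunoproteasome subunit Psmb10 had -0.34 ± 0.14 (adjusted p = 0.165), Psmb8 -0.25 ± 0.12 (adjusted p = 0.238) and Psmb9 -0.24 ± 0.14 (adjusted p = 0.352). Pdia3 and the proteasome activator Psme2 lay above 0, at 0.36 ± 0.12 (adjusted p = 0.0872) and 0.36 ± 0.15 (adjusted p = 0.195). Between fractions 1 of 11 passed, Pdia3, a thiol oxidoreductase of the loading complex, which was higher in CD41+ cells (0.43 ± 0.12, adjusted p = 0.0466). Of all 13448 genes 367 were called higher. Pdia3 missed the threshold without any library other than control CD41- replicate 2 or control CD41+ replicate 1 (adjusted p = 0.0539 to 0.211).

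The list of class I transactivators held Nlrc5, the RFX subunits, Creb1 and the NF-Y subunits. With depletion 0 of 8 passed by edgeR, 3 had an unadjusted p under 0.05, DESeq2 called 0 and gave no adjusted p for 1, and the median was 0.27. Nlrc5, the master coactivator of class I promoters, had -0.05 ± 0.38 (adjusted p = 0.966). Rfx5 had -0.72 ± 0.29 (adjusted p = 0.172), Rfxank -0.40 ± 0.16 (adjusted p = 0.152) and Creb1 0.37 ± 0.16 (adjusted p = 0.201). Values lay above 0 for 5 of the 8 genes and below 0 for 3. In CD41+ cells alone Creb1 had 0.95 ± 0.25 (adjusted p = 0.166). Between fractions Creb1, which binds the CRE core, was lower in CD41+ cells (-0.73 ± 0.16, adjusted p = 0.0199). It was the 1 of 8 that passed, against 2.65% of all genes called lower. Its call ended without control CD41+ replicate 2 (adjusted p = 0.0965). The difference for Nlrc5 was -0.57 ± 0.38 (adjusted p = 0.396).

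Interferon signalling was the list with most calls. After depletion 2 of 12 passed, both lower, against 2.73% of all genes called lower, with a list median of -0.24 against -0.01 over all genes. Irf1, an interferon-induced activator of class I promoters, averaged 159 ± 40.9 CPM in control CD41-, 95.5 ± 0.982 in control CD41+, 101 ± 14.9 in depleted CD41- and 51.4 ± 9.11 in depleted CD41+ libraries (mean ± SD). Its log2 fold change was -0.78 ± 0.16 (adjusted p = 0.0109), and the call ended without control CD41+ replicate 1 (adjusted p = 0.0529). Irf9, the DNA-binding subunit of the factor that type I interferon activates, averaged 232 ± 47.3, 179 ± 21.6, 162 ± 22.6 and 94.9 ± 14.4 CPM in the same order of groups. It changed by -0.72 ± 0.14 (adjusted p = 0.00919). For both genes the 3 depleted CD41+ libraries lay below all other libraries.

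Between fractions 4 of the 12 interferon genes passed, all lower in CD41+ cells, against 2.65% of all genes called lower, with a median of -0.40 against -0.03 over all genes. Irf1 had -0.86 ± 0.16 (adjusted p = 0.00848) and held its call with each library left out in turn, but not without the 3 libraries together (adjusted p = 0.0764). Irf9 had -0.58 ± 0.14 (adjusted p = 0.0301), Irf2, a repressor that competes with Irf1, -1.15 ± 0.31 (adjusted p = 0.044), and Stat2, the partner of Irf9, -0.94 ± 0.25 (adjusted p = 0.0457). These last 3 calls ended without most single libraries. With 1 library left out and the call lost, the adjusted p was 0.0534 to 0.124 for Irf9, 0.0631 to 0.143 for Irf2 and 0.0545 to 0.168 for Stat2. Replicate 1 of control CD41-, depleted CD41- or depleted CD41+ cells could be left out with Irf9 still called, replicate 1 of control CD41- or 3 of depleted CD41+ cells with Irf2, and replicate 2 of depleted CD41+ cells with Stat2.

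Of 12 other class I and class I-like genes 8 had enough counts to be tested, and H2-T3, H2-Q1, H2-Q2 and H2-M2 did not. After depletion 0 of 8 passed by edgeR, 2 had an unadjusted p under 0.05, DESeq2 called 1, and the median was -0.23. H2-T24, a further non-classical heavy chain, had -1.12 ± 0.36 (adjusted p = 0.079), while H2-T22, a ligand of some gamma delta T cells, had -0.31 ± 0.16 (adjusted p = 0.273). Values lay above 0 for 3 of the 8 genes, among them H2-Q10 at 1.34 ± 0.67 (adjusted p = 0.274) and Hfe at 0.54 ± 0.31 (adjusted p = 0.34). Between fractions 1 of 8 passed, while 2.65% of all genes were called lower. The gene that passed was Mr1, which presents vitamin B metabolites to MAIT cells, and it was lower in CD41+ cells (-0.97 ± 0.23, adjusted p = 0.0272). Its call ended without control CD41- replicate 1, either control CD41+ library, depleted CD41- replicate 1 or 2, or depleted CD41+ replicate 3 (adjusted p = 0.0548 to 0.115).

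**Figure D5:**
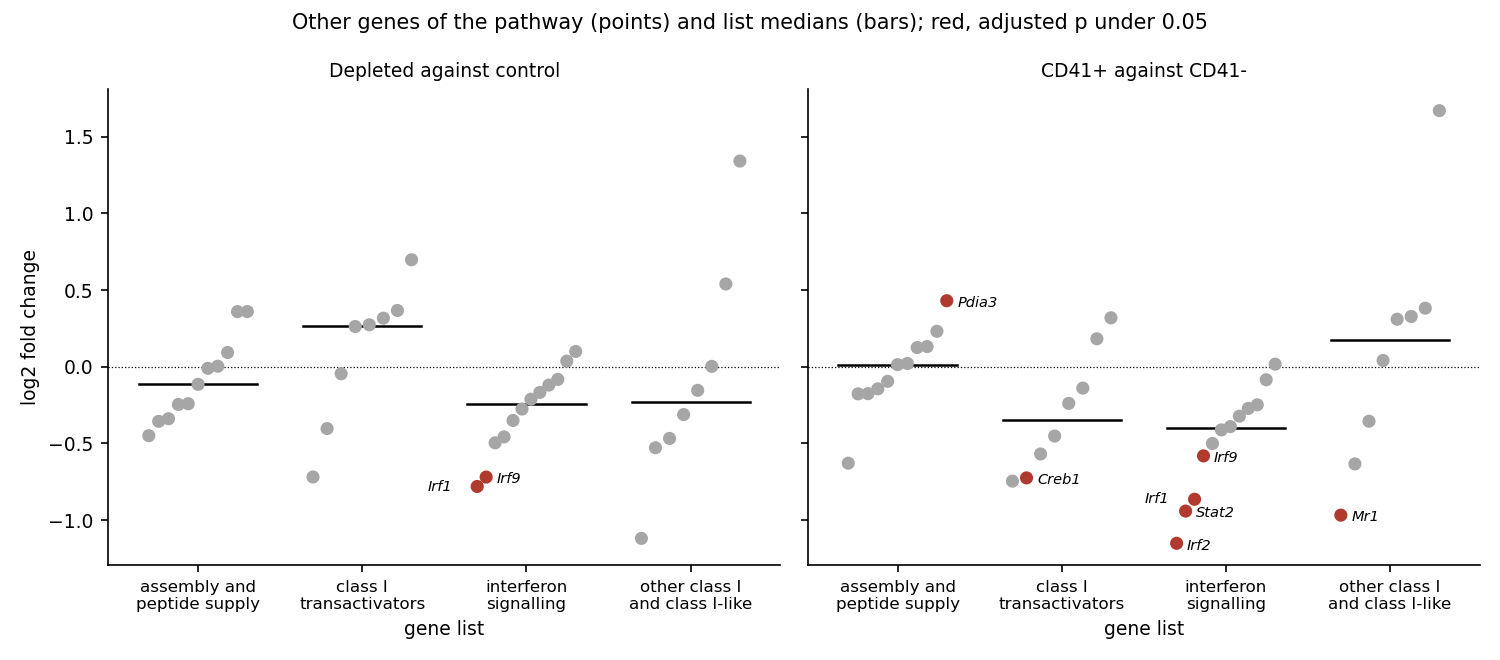
Fitted log2 fold changes (y axis) of the tested genes of the 4 lists (points, ordered by value within a list) with list medians (bars), for depletion (left) and CD41 (right), red where the adjusted p is under 0.05. Irf1 and Irf9 pass in both comparisons, while the assembly and peptide supply list centres at -0.12 after depletion and 0.01 between fractions.

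Among genes outside the 10 with at least 5 CPM, those whose log2 CPM over the 11 libraries ran most like the mean profile of the 10 were sought, as a description. They were Ramp1 (Pearson r = 0.971), a subunit of the CGRP receptor, Neurl3 (0.965), Spint2 (0.962), a serine protease inhibitor, Myct1 (0.958) and H2-DMa (0.956), a chaperone that loads class II molecules. The points come from the same libraries and share the treatment and CD41 groups, so genes that differ between these groups can have a high r. How common such an r is among all genes was not measured. With depletion Ramp1 had a log2 fold change of -1.08, Neurl3 -0.98, H2-DMa -0.81, Myct1 -0.52 and Spint2 -0.47. The mean centred profile itself ran from 0.46 in control CD41- replicate 2 to -0.52 in depleted CD41+ replicate 2, with all 5 control libraries above all 6 depleted ones.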

How the data were processed

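RNA of 1000 sorted cells per library was reverse transcribed with an oligo-dT primer and template switching, amplified over 17 PCR cycles, tagmented and indexed over 12 cycles, per the labels' protocols. The submitters' processing notes name cutadapt, STAR, HTSeq 0.6.1p1 and the GRCm38 (mm10) build. The deposited values are the authors' raw counts per gene. No annotation release, strand setting or treatment of reads with several hits is given in the sources used here. Such a protocol has no molecular identifiers, so counts are not independent molecules.

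Groups came from the sample titles. Genes were kept by filterByExpr (minimum count 10, minimum total 15), scaled by TMM and fitted with edgeR 4.0.16 (quasi-likelihood, robust) in R 4.3.3, with 1 coefficient for each of 4 groups. The 7 comparisons were each adjusted by Benjamini-Hochberg over 13448 genes at 0.05. Counts of genes with an unadjusted p under 0.05 are given without the share of all genes at that threshold. They do not set the 10 genes or the lists against other genes. SEs were obtained by dividing the absolute log2 value by the root of the F statistic. CPM per kilobase divides TMM CPM by the union exon length in GENCODE M21. p-values measure the spread between pooled libraries. The procedure was also run on simulated counts, with results not given here. Those counts were drawn independently for each library, so they cannot show effects of mice shared between libraries. Promoter sequences are from RefSeq (GRCm38.p6), and words of 50 bases were compared between GENCODE M21 transcripts. Figures were drawn with matplotlib 3.10.9.

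The members and gene lists were chosen with earlier results of these data known. Named were all 10 members, list genes passing in the comparison described (at most 6 a list by p), and the 5 genes most correlated with the mean member profile. Other genes given as values (Tapbp, Psmb8, Psmb9, Psmb10, Psme2, Nlrc5, Rfx5, Rfxank, H2-T22, H2-T24, H2-Q10, Hfe) and marker genes were chosen after their values were seen. The same holds for the depletion values of Pdia3 and Creb1. One gene of the sort gate list is not reported here. Alternatives were RLE factors, library totals alone, no filter, DESeq2 1.42.0, fits on the groups compared, a block of consecutive title numbers, leaving out each library and, added after seeing the data, leaving out 3 libraries together.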

Additional observations from a re-analysis of the deposited data

How the results depend on the processing

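In depleted against control libraries, averaged over fractions, H2-T23 and H2-Q6 passed under every alternative run and H2-M3 under all but leaving out 3 libraries together. The number of the 10 genes called there was 3 to 5 with single libraries left out and 6 by DESeq2. In CD41- cells alone it was 1 to 2 with single libraries left out, 4 by DESeq2 and 1 without the 3 libraries. In CD41+ cells alone it was 0 to 2 with single libraries left out, 1 with library totals alone, 3 with no filter, 3 by DESeq2, 0 in a fit on the groups compared and 0 without the 3 libraries. For CD41+ against CD41- cells on average it was 1 to 2 with single libraries left out, 2 with library totals alone, 2 with no filter, 2 by DESeq2 and 0 without the 3 libraries. In control mice and in depleted mice alone DESeq2 called 1 each. The share of all genes called by DESeq2, with no filter or with libraries left out is not given. Counts under these settings, here and above, therefore do not set the 10 genes or the lists against other genes. Fits on fewer samples have less power by construction, and why the counts differed between settings was not tested. Library totals alone moved the CD41 median of all genes from -0.03 to -0.12, and the split of calls from 367 higher and 357 lower to 250 and 445. The sign of Tap2 between fractions turned with RLE factors (0.0174), DESeq2 (0.0180) and the replicate block (0.0348), and ran from -0.0451 to 0.0429 with single libraries left out. That of H2-Q7 turned with library totals alone (-0.0215) and ran from -0.0502 to 0.17. B2m after depletion ran from -0.31 to 0.0507. The non-classical share without H2-Q6 and H2-Q7 was 9.61% and 10.3% in control and 7.24% and 6.1% in depleted CD41- and CD41+ libraries. On counts not divided by length the share of all 5 non-classical genes was 15.8% and 16% in control and 12.2% and 11.3% in depleted CD41- and CD41+ libraries. Consecutive title numbers were tried as a replicate block for the CD41 comparison, although the labels state no pairing. Deviations of such pairs correlated at 0.0801, 0.0977, 0.228, 0.343 and 0.207, and the block left 1 of the 10 called, H2-Q6. No paired analysis was possible for depletion because no mouse or number is shared between treatments. The depletion average, and the comparison of all control with all depleted libraries, treated CD41- and CD41+ libraries as independent. If such libraries came from the same mice, the p-values of the depletion average could be too small. Depth limits H2-Q4 most, with 2 counts in the smallest library.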
